A study of Mus musculus with 9 samples.

Results

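The genes of the collagen IV chains, Col4a1 to Col4a6, were followed through an mRNA table of mouse podocytes, the epithelial cells that cover the outer face of the glomerular capillary. All 6 genes were taken by symbol from the deposited table, which holds 23309 symbols, and each had a single line in it. The study collected total RNA from GFP-positive podocytes of mice with the mTmG reporter and a Cre allele, given as wildtype in genotype and aged 7 to 8 weeks, and sequenced it after ribosomal RNA was depleted. The Cre is active in podocytes, and mTmG is an allele that switches to membrane GFP where Cre has acted; the PBS mice carry both alleles too, so the 3 groups differ by label in the injection and the day alone. The groups are PBS, day 9 after ADR injection and day 14 after ADR injection, with 3 libraries in each. The labels write ADR without spelling it out. Whether each library is a mouse of its own is not stated, and the p-values below therefore measure only how far these libraries spread. Y-linked transcripts were high in day 9 replicate 1 and day 14 replicate 2 and low in the other libraries of those groups. The libraries of either ADR group are thus not all from the same mice, though part of their spread may be technical. In PBS the spread may be wholly technical.

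The libraries differed in ways that touch the collagen IV values. Depth estimated from the smallest steps of the FPKM values (fragments per kilobase of transcript, scaled to the mapped total) was about 26300000 to 28600000 reads in the PBS libraries, 20800000 to 23600000 reads at day 9 and 6460000 to 15200000 reads at day 14, and it fixes the read numbers quoted below only approximately. All 16 podocyte markers listed reached 1 FPKM in each of the 3 PBS libraries. Day 9 replicate 3 and day 14 replicate 1 also carried transcripts of other kidney cells: 15 of 16 endothelial markers stood above 4 times the highest PBS library in each. Transcripts of Y-linked genes were found in the 3 PBS libraries (summed FPKM 53.7 to 59.3), day 9 replicate 1 and day 14 replicate 2, and summed to at most 1.06 FPKM in the other libraries.

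Collagen IV is the collagen of basement membranes. Its chains wind into helical trimers inside the cell, are exported, and are joined end to end into a sheet that lies beneath epithelia and endothelia. Col4a1 and Col4a2 encode the chains found in nearly all basement membranes. Col4a3, Col4a4 and Col4a5 encode the chains of the mature glomerular basement membrane, which podocytes make, and mutations in them cause Alport syndrome. Col4a6 encodes a chain that pairs with that of Col4a5 in other epithelial and smooth muscle basement membranes, Bowman's capsule among them.

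The 6 genes lie as 3 head-to-head pairs, each transcribed outward from a shared start region, so the sequence between 2 starts belongs to both genes of a pair. By RefSeq on GRCm38.p6, Col4a3 and Col4a4 start 71 bases apart on chromosome 1, Col4a5 and Col4a6 start 1342 bases apart on the X chromosome, and the first exons of Col4a1 and Col4a2 on chromosome 8 overlap by 22 bases. The FPKM table was made on mm9, so these coordinates belong to the sequences and not to the FPKM values. The stretches below are shown because they join or lead into the genes whose FPKM values follow. The first is the whole stretch between Col4a3 and Col4a4 (chr1:82586850-82586920, minus strand, which is Col4a4's), the second 30 bases that end 15 bases before the start of Col4a5 (chrX:141475374-141475403, plus strand) and the third the 30 bases directly before the start of Col4a2, inside the start region it shares with Col4a1 (chr8:11312775-11312804, plus strand). Capitals mark a CTC box (CCCTCCCC) or a GC box (GGGCGG) on either strand, which overlap in Col4a5; the second stretch was placed to show both.
Col4a3-Col4a4: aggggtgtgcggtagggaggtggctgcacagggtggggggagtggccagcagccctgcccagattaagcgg
Col4a5: gcgccagcGGGGAGGGGGCGGtgcagggaa
Col4a1-Col4a2: aatttgttggcgctgccCCCTCCCCtcggc

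The stretch shared by Col4a3 and Col4a4 held neither box. In the longer windows from 250 bases before to 50 bases after a start, 5 of the 6 genes had a sequence in the table; Col4a3 had none. The CTC box, a motif known from the start region of Col4a1 and Col4a2, was found in the windows of Col4a1, Col4a2 and Col4a5, against 10.4% of 27025 mouse promoter windows of the same length. The Col4a1 and Col4a2 windows overlap, and their CTC box is 1 site read on opposite strands, so the 3 windows hold 2 sites. The GC box was found in the windows of Col4a1, Col4a2, Col4a5 and Col4a6, against 35.9% of all windows. The sole GC box of the Col4a1 window is 1 of the 3 in the Col4a2 window, read on the opposite strand. CCAAT was found in the windows of Col4a1, Col4a2 and Col4a5 (37.9% of all windows) and TATAAA in none of the 5 (14.2%). The Col4a4 window held none of these 4 motifs. A match describes letters only, and neither a match nor its lack bears on binding.

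Col4a4 had the highest FPKM of the 6 genes in every library. In the PBS libraries it stood at 66.4, 98.4 and 141 FPKM and made up 67.3 to 72.9% of the summed FPKM of the 6 genes. Col4a3 followed at 12.72, 21.1 and 30.9 FPKM, and Col4a5 at 10.2, 19.1 and 33.1 FPKM. FPKM is a level per transcript length, but the annotation and the handling of multi-mapping reads were not given. Genes can therefore be set beside each other only roughly. Col4a4 lay above both others in each library, whereas the ranges of Col4a3 and Col4a5 overlapped and their order was not fixed. Col4a6 had 0.881, 2.12 and 3.28 FPKM, and Col4a1 had 0.550, 1.48 and 0.958 FPKM. These ranges overlapped too, and both lay far under the other 3 genes. Col4a2 was lowest, at 0.247, 0.263 and 0.253 FPKM. For Col4a3 to Col4a6 alike, PBS replicate 1 was the lowest and PBS replicate 3 the highest library of the group, and that spread enters every comparison with PBS below.

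**Figure D1:**
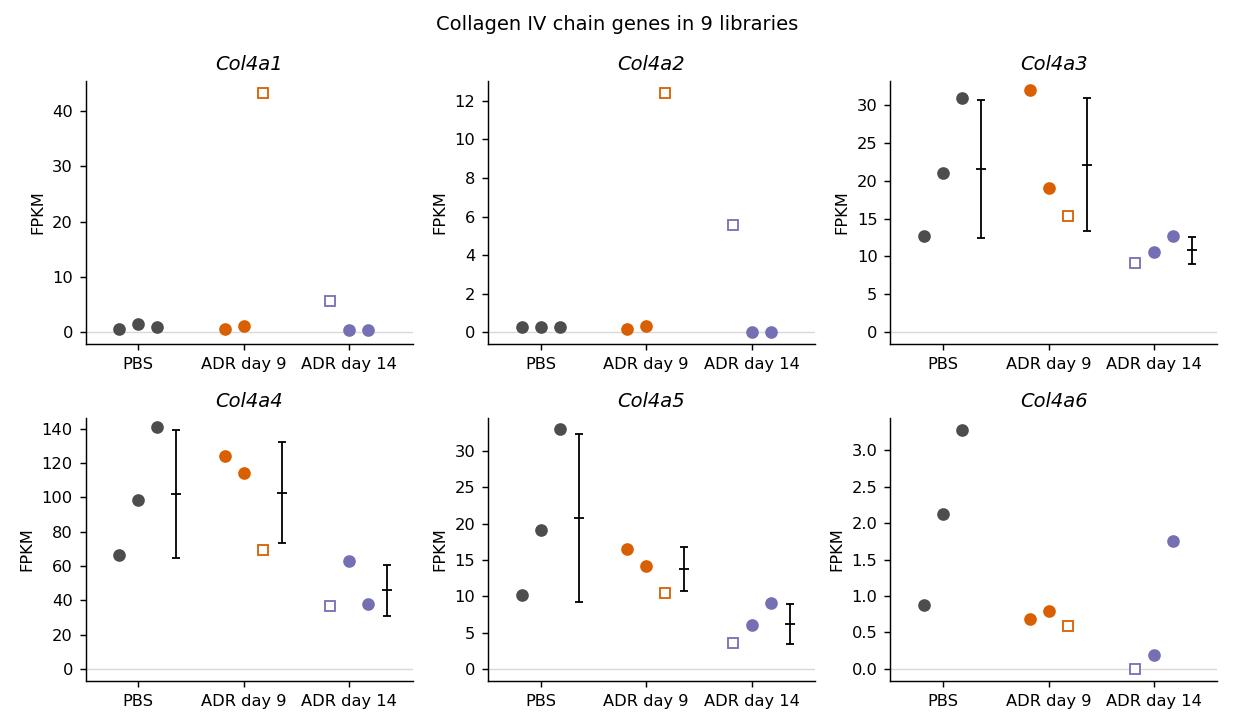
FPKM of each collagen IV gene in the 9 libraries, by group, each panel with its own linear axis from 0. Points are libraries and bars for Col4a3, Col4a4 and Col4a5 are the mean ± SD of 3 libraries; open squares are day 9 replicate 3 and day 14 replicate 1, in which other kidney cells' markers were high. Col4a3, Col4a4 and Col4a5 lie lower at day 14 than in either other group with no overlap, and Col4a1 and Col4a2 stand out in the open squares.

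At day 9 the means of Col4a3 and Col4a4 stood near those of PBS, and the mean of Col4a5 was 0.659 times that of PBS. Col4a3 had 32.0, 19.0 and 15.3 FPKM, a mean of 22.1 ± 8.80 (SD, n = 3) against 21.6 ± 9.12 in PBS. Col4a4 had 124, 114 and 69.2 FPKM, or 102.6 ± 29.4 against 101.9 ± 37.4. Both ranges lay largely within those of the PBS libraries. Col4a5 had 16.5, 14.2 and 10.5 FPKM, 13.7 ± 3.03 against 20.8 ± 11.5, and overlapped PBS as well. Col4a6 had 0.680, 0.790 and 0.588 FPKM, and all 3 values lay under the lowest PBS library. That was the sole member with no overlap between day 9 and PBS, and 6.63% of the 9788 genes tested lay lower at day 9 without overlap.

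The groups were compared with limma on log2(FPKM + 1), with Benjamini-Hochberg adjustment over 9788 genes of at least 1 FPKM in 3 or more libraries, and the median change of those genes was taken off each change (a relative log2 change). A change on this scale understates that of genes near 1 FPKM. For day 9 against PBS the relative log2 change was 0.02 ± 0.37 (SE) for Col4a3, 0.00 ± 0.36 for Col4a4, -0.48 ± 0.45 for Col4a5 and -0.83 ± 0.42 for Col4a6. Of the 5 members tested, 0 passed an adjusted p of 0.05 by limma, and of all genes 0.0% passed. By limma, 304 of all genes had an unadjusted p under 0.05 at day 9, 186 of them higher, and no member was among them. With no filter on low values 2 genes passed, with the PBS and day 9 libraries alone 1 did, and without day 14 replicate 2 1 did; none of these settings added a member.

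At day 14 the 3 chains of the glomerular basement membrane stood lower, and Col4a5 was the one that passed the test. Col4a5 had 3.50, 6.04 and 9.02 FPKM, 6.19 ± 2.77 (SD, n = 3), which is 0.297 times the PBS mean. Every day 14 library lay under the lowest PBS library, and the values rest on an estimated 148, 486 and 897 reads. Col4a5 fell by 1.39 ± 0.45 (SE) on the relative log2 scale (limma, adjusted p = 0.0479). Col4a4 had 36.8, 63.1 and 37.6 FPKM, 45.8 ± 14.9 or 0.45 times the PBS mean, and Col4a3 had 9.16, 10.6 and 12.66 FPKM, 10.8 ± 1.76 or 0.501 times. Neither overlapped the PBS values, though the highest day 14 library of each came close to the lowest PBS library. Their relative log2 changes of -0.97 ± 0.36 for Col4a4 and -0.72 ± 0.37 for Col4a3 did not pass (limma, adjusted p = 0.0651 and 0.140).

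Thus 1 of 5 members tested passed at day 14, and it was lower. Among all genes 17.1% passed, 10.7% lower and 6.32% higher. That is 1670 genes, and the number was 0 without PBS replicate 2, 150 without PBS replicate 3, 1081 without day 9 replicate 2 and 470 with the PBS and day 14 libraries alone. Of the 6 members, 3 lay below PBS without overlap, against 23.8% of all genes tested. In bulk RNA of sorted cells, fewer podocytes in a sample and less RNA per podocyte cannot be told apart.

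The Col4a5 call stood close to the threshold and held in 7 of 22 alternative analyses, with relative log2 changes from -1.80 to -0.96 and adjusted p from 0.0311 to 0.191 (limma). It was lost without day 9 replicate 3 and day 14 replicate 1 (-1.06, adjusted p = 0.0890), with a term for Y-linked transcripts (-1.19, adjusted p = 0.191), and without PBS replicate 3 (-0.96, adjusted p = 0.147), PBS replicate 2, any day 9 library, or day 14 replicate 1 or 2. Depth and Y-linked transcripts move with the groups, Col4a5 itself is X-linked, and their part in the result was not tested beyond that term, under which 0 of all genes passed for day 14 against PBS.

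**Figure D2:**
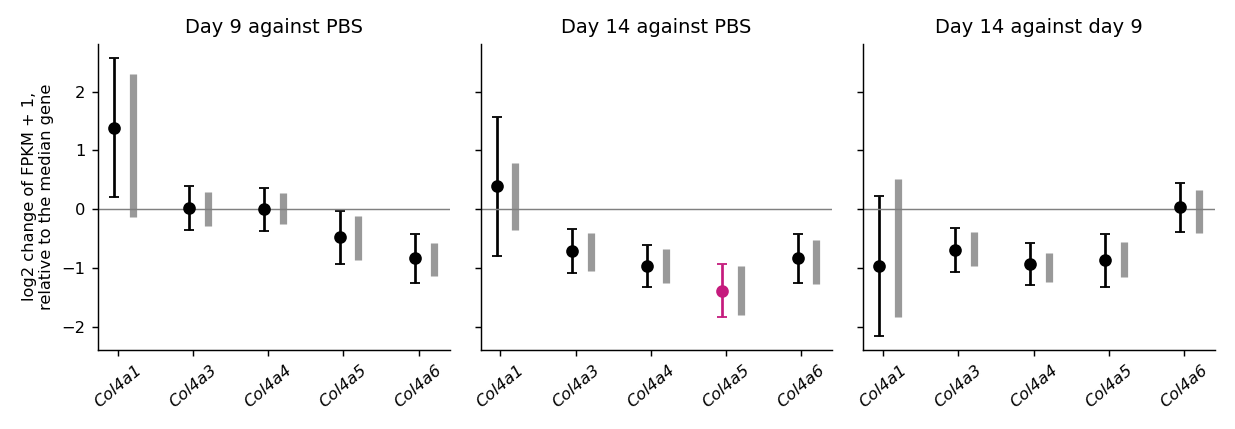
Relative log2 change of FPKM + 1 of the 5 tested members in the 3 comparisons, with 0 as the median change of all genes tested. Points with bars are the limma estimate ± SE, grey bars span the estimates with each library left out in turn, and the magenta point, Col4a5 at day 14 against PBS (-1.39), is the one that passed. The grey bar of Col4a1 runs across 0 in all 3 panels.

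Between day 9 and day 14 the same 3 genes lay lower without overlap, which was so for 24.6% of all genes tested. The ratio of the day 14 to the day 9 mean was 0.489 for Col4a3, 0.446 for Col4a4 and 0.451 for Col4a5. The relative log2 changes were -0.70 ± 0.37 (SE), -0.93 ± 0.36 and -0.87 ± 0.45, and 0 of 5 members passed (limma, adjusted p = 0.122, 0.0621 and 0.124). Among all genes 15.7% passed, 9.98% lower and 5.71% higher. Those 1536 genes became 497, 625 and 381 without day 9 replicate 1, 2 and 3, 729 without PBS replicate 2 and 262 with the day 9 and day 14 libraries alone. Both day 14 comparisons share the day 14 libraries, so they are not independent of each other. Col4a4 passed both once each library was scaled to the same total, by -1.03 against PBS and -0.99 against day 9 (adjusted p = 0.0356 and 0.0306, limma), a scaling that moved the median gene to -0.339 and -0.435; under the other alternatives it did not pass.

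Ratios of 2 chains within a library do not depend on how that library was scaled. Apart from the ratio of the podocyte to the common chains, the ratios were chosen after the values had been seen. The smallest p that 3 libraries against 3 can give in the exact permutation test is 0.1, and adjustment over the 21 ratio comparisons gave 0.35 for those that reached it. Col4a4 to Col4a3, whose genes share a start region, had ratios of 5.22, 4.67 and 4.56 in PBS, 3.88, 6.02 and 4.53 at day 9, and 4.02, 5.96 and 2.97 at day 14. The 3 groups overlapped, and the spread was wider after injection than in PBS.

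Col4a5 to Col4a3 had ratios of 0.805, 0.905 and 1.07 in PBS, 0.514, 0.747 and 0.686 at day 9, and 0.382, 0.571 and 0.7125 at day 14. All 6 libraries after injection lay under the 3 PBS libraries. The mean log2 difference from PBS was -0.52 at day 9 and -0.78 at day 14 (two-sided exact permutation p = 0.1 for each), and day 9 and day 14 overlapped (difference -0.25, exact permutation p = 0.6). Among libraries with Y-linked transcripts the ratio was 0.805 to 1.07 in PBS, 0.514 in the single day 9 library and 0.571 in the single day 14 library. Col4a5 to Col4a4 separated from PBS at day 9 but not at day 14: it was 0.154, 0.194 and 0.235 in PBS, 0.132, 0.124 and 0.1515 at day 9, and 0.0951, 0.0959 and 0.240 at day 14. Day 14 replicate 3 stood above all PBS libraries, and the log2 difference from PBS was -0.50 at day 9 and -0.56 at day 14 (exact permutation p = 0.1 and 0.4).

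The collagen IV genes were also set against Nphs1 (nephrin, a slit diaphragm protein made by podocytes) within each library. Col4a4 to Nphs1 was 1.68, 2.009 and 2.004 in PBS, 1.25, 1.63 and 1.53 at day 9, and 1.22, 1.41 and 1.12 at day 14. Here too every library after injection lay under every PBS library. The mean log2 difference from PBS was -0.37 at day 9 and -0.60 at day 14 (exact permutation p = 0.1 for each). At day 9 the Col4a4 mean itself was near that of PBS (102.6 against 101.9 FPKM). The Nphs1 mean was 71.5 ± 27.1 FPKM against 53.0 ± 15.8 in PBS (SD, n = 3), so the day 9 ratio does not show less Col4a4. Whether other genes also lay lower against Nphs1 was not tested. Col4a5 to Nphs1 was 0.259, 0.389 and 0.470 in PBS, 0.166, 0.203 and 0.232 at day 9, and 0.116, 0.135 and 0.268 at day 14. Day 9 did not overlap PBS, with a difference of -0.87 (exact permutation p = 0.1). At day 14 replicate 3 reached into the PBS range, and the difference was -1.17 (exact permutation p = 0.2). Col4a3 to Nphs1 was 0.3215, 0.430 and 0.439 in PBS, 0.323, 0.271 and 0.339 at day 9, and 0.303, 0.237 and 0.376 at day 14. Both days overlapped PBS, with differences of -0.34 and -0.39 (exact permutation p = 0.3 and 0.2). Nphs1 itself stood at 39.6, 49.0 and 70.4 FPKM in PBS, 99.2, 70.1 and 45.1 at day 9, and 30.2, 44.7 and 33.7 at day 14. Like Col4a4 it was lowest in replicate 1 and highest in replicate 3 of the PBS group.

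**Figure D3:**
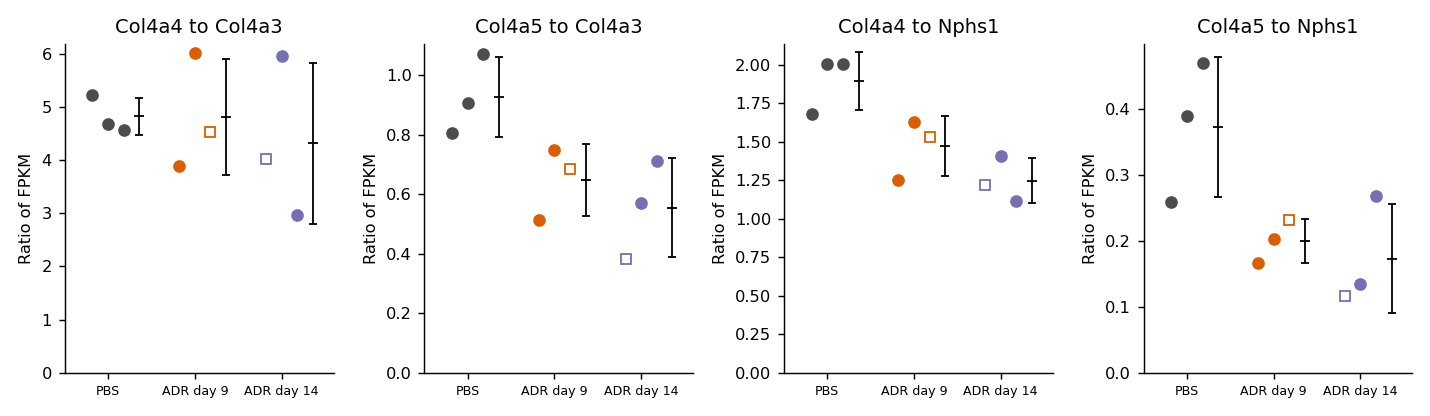
Ratios of FPKM within each library, by group, on linear axes from 0. Points are libraries, bars are the mean ± SD of 3 libraries, and open squares are day 9 replicate 3 and day 14 replicate 1; Col4a5 to Col4a3 and Col4a4 to Nphs1 lie lower in all 6 libraries after injection than in PBS, while Col4a4 to Col4a3 overlaps between groups.

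Col4a1 and Col4a2, the chains common to basement membranes, were near the floor in most libraries and high in the same pair. Col4a1 had 0.525, 1.15 and 43.3 FPKM at day 9 and 5.67, 0.413 and 0.324 FPKM at day 14. Col4a2 had 0.149, 0.321 and 12.4 FPKM at day 9 and 5.56, 0.0121 and 0.0197 FPKM at day 14, the last 2 of which rest on about 1 to 2 estimated reads (0.964 and 1.93). Day 9 replicate 3 and day 14 replicate 1 stood above every other library for both genes. Of the other libraries, those of day 9 overlapped PBS for both genes, and those of day 14 lay under both groups. Col4a2 reached 1 FPKM in those 2 libraries only and was not tested. In day 9 replicate 3 Col4a1 made up 28.6% of the collagen IV FPKM and Col4a2 8.21%, and in day 14 replicate 1 they made up 9.35% and 9.17%.

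These are the libraries with transcripts of other kidney cells. Emcn (endomucin, a membrane protein of endothelial cells) had 424 FPKM in day 9 replicate 3 and 244 FPKM in day 14 replicate 1, against 0.06 to 4.44 FPKM elsewhere. The summed FPKM of the 16 endothelial markers ran from 446 to 552 in PBS, was 638, 704 and 3715 at day 9 and was 980, 435 and 112 at day 14. Outside the pair most of that sum was Cldn5, with 475, 439 and 548 FPKM in PBS and 93.5 FPKM in day 14 replicate 3. In the PBS libraries 4, 3 and 2 of the 16 markers reached 1 FPKM. Ptprc (CD45, on leukocytes) had 7.88 and 7.05 FPKM in day 9 replicate 3 and day 14 replicate 1 and at most 0.09 FPKM in the others. Aqp2 (a water channel of the collecting duct) had 226 and 9099 FPKM there and at most 15.5 FPKM elsewhere. Of 14 mesangial markers 6 stood above 4 times the highest PBS library in day 9 replicate 3 and 2 in day 14 replicate 1. Pdgfrb (a receptor of mesangial cells and pericytes) had 34.7 and 2.49 FPKM in them. It had 4.82 to 19.5 FPKM in PBS, 12.6 and 12.8 in the other day 9 libraries and 2.48 and 0.893 in the other day 14 libraries. Its level in day 14 replicate 1 thus lay under every PBS library. Of 12 proximal tubule markers the counts were 3 and 11, and Lrp2 (megalin) reached 5.38 FPKM in day 14 replicate 1 and at most 0.19 FPKM elsewhere. The counts for day 9 replicate 3 and day 14 replicate 1 were 9 and 12 of 12 distal tubule markers, 8 and 9 of 14 leukocyte markers, 4 and 5 of 10 parietal cell markers and 4 and 3 of 7 red cell markers. Red cell transcripts were not limited to them: their summed FPKM was 547.7 in day 9 replicate 1, with 2 of 7 markers above 4 times the highest PBS library, against 248 and 66.5 in the pair. Their part in the Col4a1 and Col4a2 levels was not tested.

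**Figure D4:**
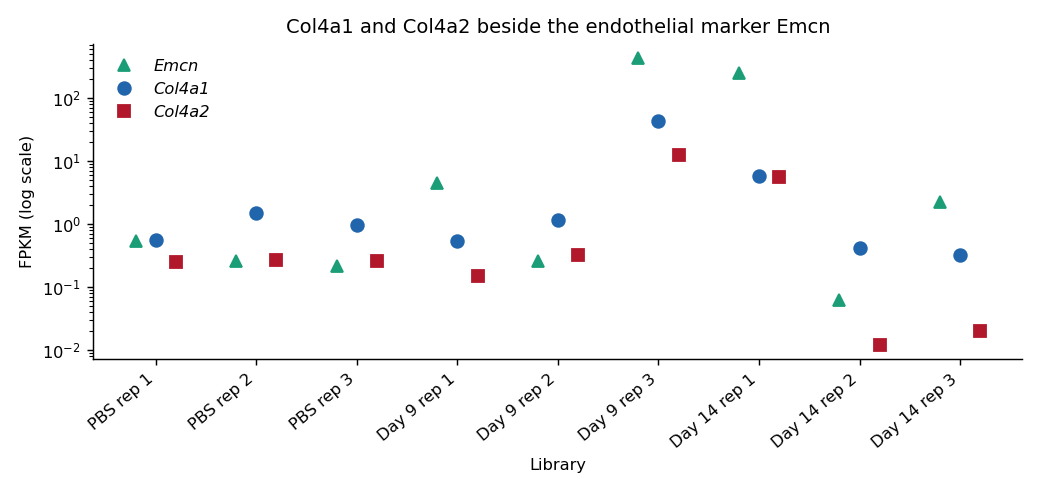
FPKM of Col4a1, Col4a2 and the endothelial marker Emcn in each of the 9 libraries, on a log axis, with 1 point per gene and library. All 3 genes are highest in day 9 replicate 3 (424 FPKM for Emcn, 43.3 for Col4a1, 12.4 for Col4a2) and second in day 14 replicate 1.

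The relative log2 change of Col4a1 was 1.39 ± 1.19 (SE) for day 9 against PBS, 0.39 ± 1.19 for day 14 against PBS and -0.97 ± 1.19 for day 14 against day 9, and none passed (limma, adjusted p = 0.9999, 0.900 and 0.514). Without the pair of libraries the first was -0.13 and the second -0.35. The ratio of the summed FPKM of Col4a3, Col4a4 and Col4a5 to that of Col4a1 and Col4a2 was 112, 79.4 and 169 in PBS. At day 9 it was 256, 100 and 1.70, and at day 14 it was 4.40, 188 and 172. Outside the pair of libraries with other cell markers the ratio was 79.4 to 256, and inside it 1.70 and 4.40. Its mean log2 difference was -1.70 for day 9 against PBS, -1.13 for day 14 against PBS and 0.57 for day 14 against day 9 (exact permutation p = 0.8, 1.0 and 0.7), and without that pair the first 2 turned to 0.48 and 0.65.

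The ratio of Col4a1 to Col4a2, whose chains are built into 1 trimer, was 2.22, 5.64 and 3.78 in PBS and 3.51, 3.60 and 3.49 at day 9. At day 14 it was 1.02, 34.0 and 16.5, the last 2 over a Col4a2 level of 1 to 2 estimated reads. The first exons of the 2 genes overlap, and strand was not stated for the counting, so reads from that overlap cannot be told apart.

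Col4a6 was low throughout and listed at 0 in day 14 replicate 1. In the other day 14 libraries it had 0.188 and 1.75 FPKM, and the day 14 range took in the PBS replicate 1 value. Its relative log2 change was -0.84 ± 0.42 (SE) for day 14 against PBS (limma, adjusted p = 0.135) and 0.03 ± 0.42 for day 14 against day 9 (adjusted p = 0.790), with the latter turning to -0.07 under median-of-ratios scaling. Without day 14 replicate 3 the first passed, at -1.28 (limma, adjusted p = 0.0308).

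The genes whose pattern lay closest to each member were ranked by the root mean square distance of log2(FPKM + 1) over the 9 libraries, each gene taken about its own mean, among 9787 other genes. Closest to Col4a3 were Entpd4 (distance 0.164), Inpp4a (0.195) and Piwil2 (0.207). Closest to Col4a4 was Itga2 (0.136), the alpha chain of a collagen-binding integrin, followed by Arhgap32 (0.199) and Frs2 (0.209). Closest to Col4a5 were Filip1 (0.238), Pld1 (0.241) and Daam2 (0.248). The head-to-head partner was not the nearest in either direction: Col4a4 ranked 76 for Col4a3 at a distance of 0.297, and Col4a3 ranked 75 for Col4a4. For Col4a5 the nearest members were Col4a3 at rank 97 and Col4a4 at rank 197, ahead of its own partner Col4a6 at rank 298. Closest to Col4a6 were Znf512b (0.179), Ddhd2 (0.223) and Exoc4 (0.227). Closest to Col4a1 were Fmnl3 (0.249), AI467606 (0.315) and 9430020K01Rik (0.321), each highest in day 9 replicate 3, and Col4a3 stood at rank 7150 for it. The distances describe 9 libraries that also differ in depth and cell makeup. They rest on log2(FPKM + 1), which understates changes of genes near 1 FPKM. Itga2 had a mean of 2.19 FPKM in PBS and 0.561 at day 14, and Col4a4 had 101.9 and 45.8, so their closeness depends on that scale.

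Around the chains, genes of the collagen IV pathway were read from lists, and at day 14 no gene of any list passed as higher. In counts of genes, fell means lower at an adjusted p under 0.05 (limma). Of 19 tested genes that fold, modify or export collagen, 5 (26.3%) fell from PBS to day 14, where 10.7% of all genes tested fell, and the median relative log2 change was -0.81. The collagen IV genes themselves had a median of -0.84 over 5, and the median of all genes tested is 0 by construction. P4ha1, the catalytic subunit of prolyl 4-hydroxylase, went from 45.02, 52.65 and 68.67 FPKM in PBS to 11.9, 25.7 and 16.5 FPKM at day 14. It fell by 1.46 ± 0.29 (SE; limma, adjusted p = 0.0131). Its partner subunit P4hb fell by 0.95, as did Sec24d (-1.29) and Sec23a (-0.97), coat proteins of the vesicles that leave the endoplasmic reticulum. The fifth was Plod3 (-0.88), a lysyl hydroxylase. Of the 19 genes, 13 lay below the median gene. Sar1a (0.77) and Ppib (1.32) stood higher in every day 14 library than in every PBS library. Neither passed (limma, adjusted p = 0.0712 and 0.121). The count of 5 dropped to 0 with a term for Y-linked transcripts, with the PBS and day 14 libraries alone and without PBS replicate 2 or PBS replicate 3, to 2 without PBS replicate 1 or day 9 replicate 2, and was 6 without the pair of libraries with other cell markers.

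Of 13 tested genes listed as partners or cross-linkers of the collagen IV network, 7 (53.8%) fell at day 14, with a median of -1.07. Among all genes tested 10.7% fell. Npnt (nephronectin, an integrin ligand of the glomerular basement membrane) went from 564, 690 and 904 FPKM to 166, 199 and 51.6 FPKM and fell by 2.41 ± 0.48 (limma, adjusted p = 0.0142). Loxl1 (-2.24) and Loxl3 (-1.62), lysyl oxidases that cross-link matrix, and Col18a1 (-1.72), a basement membrane collagen, fell too. The others were Pxdn (-1.79), the peroxidase that makes the sulfilimine bonds of collagen IV, the matrix protein Sparc (-1.455) and the proteoglycan Agrn (-0.99). Loxl2 (-1.01), another lysyl oxidase of the list, and Col4a3bp (0.39) did not pass (limma, adjusted p = 0.261 and 0.513). Of the 13 genes, 11 lay below the median gene. The count of 7 dropped to 0 with a term for Y-linked transcripts and without PBS replicate 2 or PBS replicate 3, and it was 7 without the pair of libraries with other cell markers.

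Laminins are the other polymer of the basement membrane. Of 4 tested chains 1 (25.0%) fell, Lamb2, part of the laminin of the mature glomerular basement membrane. Lamb2 went from 33.9, 45.6 and 50.2 FPKM to 10.3, 7.36 and 4.09 FPKM, a fall of 2.33 ± 0.34 (limma, adjusted p = 0.00994). Of 9 tested receptors 2 (22.2%) fell, Dag1, or dystroglycan (-2.27), and Itga3, the podocyte's laminin-binding integrin alpha chain (-1.77). Of 14 proteases and inhibitors Timp3, an inhibitor of metalloproteinases, fell by 1.19, and the list's median was -0.15. Of 18 regulators Smad3, a mediator of TGF-beta signals, fell by 1.25. These are 7.14% and 5.56% of their lists, under the 10.7% of all genes tested that fell. Of 3 other collagens tested none passed, and Col1a2 stood at -1.31 (limma, adjusted p = 0.0601). In the laminin, receptor, protease and regulator lists alike 0 genes fell without PBS replicate 2 or with a term for Y-linked transcripts; without PBS replicate 3 the protease and regulator counts were also 0 and the receptor count was 1. The protease count was 2 without day 14 replicate 1, and the regulator count was 3 without day 9 replicate 3 or day 14 replicate 2.

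**Figure D5:**
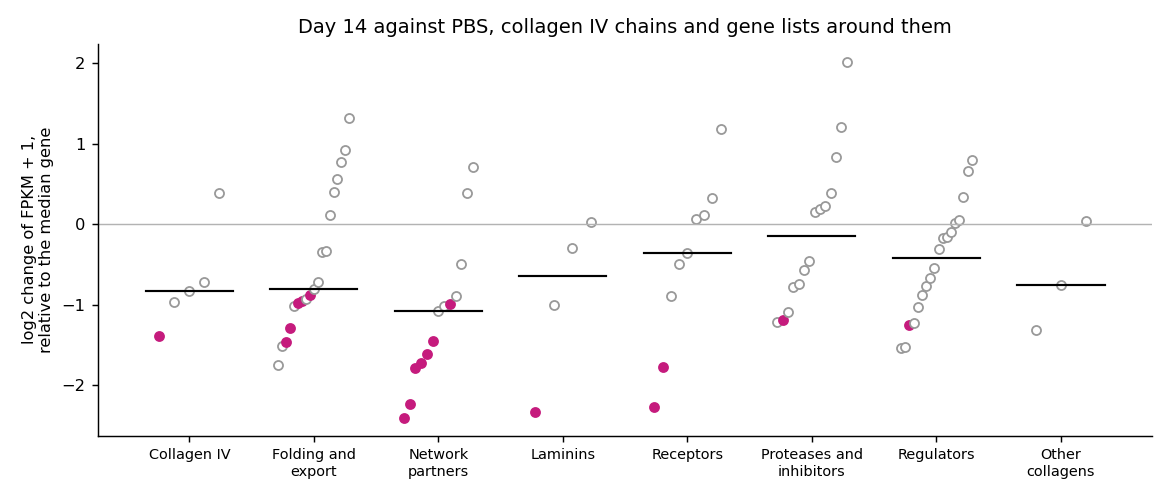
Relative log2 change of FPKM + 1 at day 14 against PBS for the tested genes of each list, 1 point per gene. Filled points passed (limma, adjusted p under 0.05), open points did not, and horizontal lines are list medians; the filled points all lie below 0, with 7 among the network partners and 1, Col4a5, among the collagen IV genes.

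From day 9 to day 14 the lists again held genes that passed as lower and none that passed as higher. In this comparison 9.98% of all genes tested fell. The share was 42.1% for folding and export, 38.5% for network partners, 33.3% for receptors, 21.4% for proteases and 16.7% for regulators. Among folding and export genes 8 of 19 fell, P4ha1 (-1.53), P4hb (-0.98), Sec24d (-1.21) and Leprel1 (-2.21), a prolyl hydroxylase, having the smallest p. Among network partners 5 of 13 fell, Npnt (-2.63), Pxdn (-1.92), Col18a1 (-1.55) and Agrn (-1.13) having the smallest p; the fifth was Loxl3 (-1.11). Lamb2 and Lamc1, both chains of the glomerular laminin, fell too (-2.35 and -1.34). Of 9 receptors 3 fell, Dag1 (-2.25), Itga3 (-1.79) and Itga2 (-0.91). Of 14 proteases and inhibitors 3 fell, Timp3 (-1.35), the tissue plasminogen activator Plat (-1.36) and Reck (-0.69), a membrane inhibitor of metalloproteinases. Of 18 regulators 3 fell, Lmx1b (-1.70), a podocyte transcription factor known to act on Col4a3 and Col4a4, Foxc2 (-2.65), another podocyte transcription factor, and Smad3 (-0.83). Lmx1b was listed at 0 in day 14 replicate 1. Col1a2 fell by 1.89, while 0 of the 5 collagen IV genes tested passed in this comparison. Without day 9 replicate 3 the counts were 1 for folding and export, 1 for network partners, 1 for laminins, 2 for receptors, 1 for proteases, 1 for regulators and 0 for other collagens. The folding and export count of 8 was also 1 without day 9 replicate 1, 2 without day 9 replicate 2 or PBS replicate 2 and 5 without day 14 replicate 3. The network count of 5 was 2 without day 9 replicate 1 or day 14 replicate 3 and 3 without day 9 replicate 2 or PBS replicate 2. The protease and regulator counts were 1 with each day 9 library left out in turn, the protease count was 1 without PBS replicate 2, the laminin count was 1 with any single library other than PBS replicate 3 left out, and the count of other collagens was 0 without day 9 replicate 1.

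For day 9 against PBS none of the listed genes passed. The genes with the smallest unadjusted p in their lists were Creb3l1 (1.68), Loxl1 (-1.87), Lamc1 (0.37), Itgb5 (2.34), Timp1 (-2.08), Foxc2 (1.92) and Col1a2 (0.61), given as relative log2 changes, and the smallest adjusted p over all genes was 0.9999 (limma). List medians at day 9 lay between -0.35 and 0.16, beside -0.00 for the collagen IV genes.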

How the data were processed

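The authors deposited 1 table of FPKM values for 9 libraries. Per the submitters' processing notes, Bowtie 0.12.7, Cufflinks and mm9 were used; what each did, the annotation, strand handling and multi-mapping reads are points not given in the sources used here. The full name of the strain is not reported here. The columns named control were matched to the PBS samples by replicate number. The table has 23813 rows; 260 symbols repeat, and the entry with the largest mean stood for each.

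Log2(FPKM + 1) values of all 9 libraries were fitted by group with limma 3.58.1 (R 4.3.3, variance trend), keeping genes of at least 1 FPKM in at least 3 libraries and adjusting p-values by Benjamini-Hochberg over all 9788 of them, with a threshold of 0.05. Changes are given minus the median change of all genes tested, 0.035 for day 9 against PBS, -0.147 for day 14 against PBS and -0.216 for day 14 against day 9. The fit was tested on simulated data. Ratios were compared with exact permutation tests (NumPy 2.4.6), and their p-values were adjusted with SciPy 1.17.1. Read numbers were estimated from the step of 1 read in FPKM times transcript length, with 53.5 to 58.3% of low values within 0.15 of a whole read, so no count test was run. Length and GC content came from the longest GENCODE M21 transcript for 99.5% of the genes tested.

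The members, lists and tests were chosen with earlier results of these data known. From each list the text names the genes that passed, or the 4 with the smallest p where more did. Where none passed it names the gene with the smallest p. Plod3, Sar1a, Ppib, Pxdn, Sparc, Agrn, Loxl2 and Col4a3bp for day 14 against PBS were added after their values were seen. So was the last network gene for day 14 against day 9. Alternatives covered the pseudocount, the filter, 3 scalings, the variance model, the libraries fitted, the replicate block, repeated symbols, Y-linked transcripts, length and GC, and libraries left out singly or, for the 2 with other kidney cell markers, together.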

Additional observations from a re-analysis of the deposited data

How the results depend on the processing

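Low values and depth limit Col4a2 and Col4a6 most, and 3 libraries a group limit every comparison. Col4a1 was near the floor in most libraries. Its changes for day 9 and day 14 against PBS turned in sign without the 2 libraries with other kidney cell markers. The number of collagen IV genes that passed for day 14 against PBS was 1; it was 0 with no filter, with median-of-ratios scaling, with quantile normalization, with the 2 groups alone, without the 2 libraries with other kidney cell markers, with a term for Y-linked transcripts and with the length and GC trend taken out, 2 with libraries scaled to a common total, and 0 to 2 with each library left out in turn. For day 14 against day 9 it was 0, and 1 with a common total. Same-numbered libraries did not deviate together (correlations from -0.265 to 0.431, with most under 0.1), so the numbers were not taken as pairs; with the number as a replicate block the count of members was 0 for day 14 against PBS (Col4a5 at -1.39, limma adjusted p = 0.0587), and 1301 of all genes passed in place of 1670.

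Signs turned most often where a change was small. They also turned for larger changes, those of Col4a1 and of the ratio of podocyte to common chains. For day 9 against PBS, Col4a4 was 0.02 with no filter and with a filter of 5 FPKM, 0.05 with quantile normalization, 0.28 without the 2 libraries, 0.41 with the Y-linked term and -0.26 to 0.28 with a library left out. Col4a3 was -0.01 with quantile normalization, -0.03 with the length and GC trend taken out and -0.28 to 0.29 with a library left out. Col4a1 was -0.13 without the 2 libraries and -0.13 to 2.30 with a library left out. For day 14 against PBS, Col4a1 was -0.35 without the 2 libraries, -0.82 with the Y-linked term and -0.35 to 0.79 with a library left out. For day 14 against day 9, Col4a1 ran from -1.84 to 0.52 with a library left out, and Col4a6 was -0.75 with a pseudocount of 0.1, -0.16 with no filter, -0.07 with median-of-ratios scaling and -0.41 to 0.33 with a library left out. The log2 ratio of podocyte to common chains was 0.48 for day 9 against PBS without the 2 libraries (-3.13 to 0.48 with a library left out). For day 14 against PBS it was 0.65 without them (-2.06 to 0.65). For day 14 against day 9 it ran from -1.62 to 2.35 with a library left out. In that comparison it was -0.19, in place of 0.57, when log2(FPKM + 1) was averaged over the chains of each kind before subtraction. That measure understates changes of genes near 1 FPKM. The cause was not tested.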
